A study of Mus musculus with 33 samples.

Results

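The 12 transcribed regions examined here lie wholly inside the span of Notch2 and of no other RefSeq gene, among 49745 numbered genomic regions counted in RNA libraries of CH12 cells, a mouse B cell lymphoma line used to study antibody class switching. The gene was chosen by the rise of its summed regions in activated WT cells, so its activation values are given as a description, with no test. The study compared cells with and without ZMYND8, a chromatin reader protein, in activated and unactivated culture. Ribosome-depleted total RNA was sequenced from 4 lines in both states after 48 h of culture: the ZMYND8 KO2 clone and the ZMYND8 KO1 clone, both lacking ZMYND8, and a WT clone and the WT line, called parental WT here, both with ZMYND8 intact. Each line and state had 3 biological repeats, which gave 24 libraries. The stimulus that activated the cells and the edit that removed ZMYND8 are not stated in the labels. Each knockout line is 1 clone, so a difference between KO and WT lines cannot be told apart from one between clones except as far as KO2 and KO1, or the WT clone and parental WT, differ among themselves.

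Notch2 is a member of the Notch family of cell surface receptors. A ligand on a neighbouring cell leads to cleavage of the receptor by ADAM metalloproteases and γ-secretase, and the released intracellular domain enters the nucleus, where it joins RBPJ and Mastermind-like proteins on target genes. In the mouse spleen, Notch2 is the receptor needed for marginal zone B cells to form.

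Most of the RNA counted inside Notch2, and nearly all of its rise on activation, came from 1 region of 664 bases. The gene spans chromosome 3, 98013538 to 98150367, on the plus strand (GRCm38), and the 12 regions cover 9133 bases, which is 6.67% of it. The 664-base region, chr3:98050087-98050750, begins 36549 bases after the gene's start and held 89.0% of the counts of the 12 regions over the 24 libraries. Per kilobase, its mean level over the 24 libraries was 9.83 CPM per kb (CPM, a counts-per-million value from the estimated counts, with all targets of a library in the total), and the other 11 regions lay between 0.0228 and 0.176 CPM per kb. Among 347 tested genes with 10 or more such regions, the leading region held a median of 33.3% of the counts, and in 5 genes, Notch2 included, it held at least as much as in Notch2. No exon annotation was used here, so whether the region lies in an exon or an intron of Notch2, or belongs to a separate transcript, is not known, and its values are those of RNA from that stretch and not of the Notch2 messenger RNA.

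**Figure D1:**
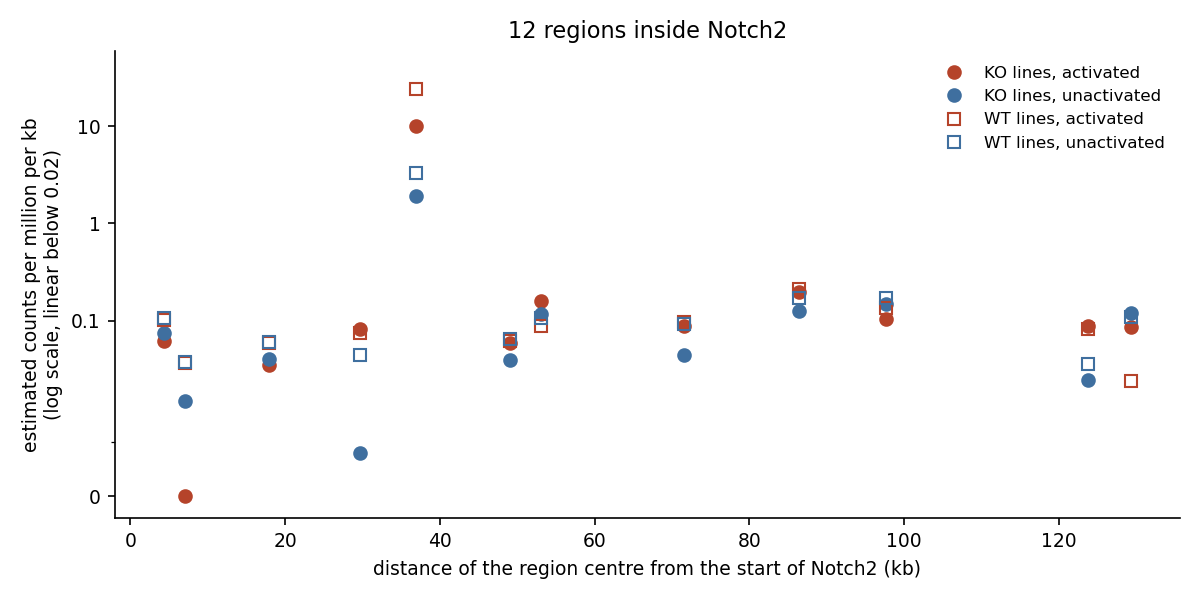
Mean level of each of the 12 regions inside Notch2, in CPM per kb (log scale, linear below 0.02), against the distance of its centre from the gene's start, for KO and WT lines (n = 6 libraries per point) in each state. The region 36.5 kb into the gene stands above the other 11 in all 4 groups, and its activated points lie above its unactivated points.

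The gene's promoter is shown because the span is counted from its start and the 664-base region lies far downstream of it. The 250 bases before the start, chr3:98013288-98013537 on the plus strand, are given 5′ to 3′ from RefSeq (GRCm38.p6), with the match to the NF-kB motif in capitals.
Notch2 promoter: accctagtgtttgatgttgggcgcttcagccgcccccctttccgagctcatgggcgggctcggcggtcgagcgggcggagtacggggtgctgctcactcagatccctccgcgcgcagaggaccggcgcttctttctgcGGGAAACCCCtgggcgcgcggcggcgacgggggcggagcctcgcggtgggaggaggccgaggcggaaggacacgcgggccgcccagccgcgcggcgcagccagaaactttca
This window is 72.0% G and C and holds 34 CpG sites. The NF-kB match begins 112 bases before the start, and 7.25% of 32851 promoter windows of the same length hold such a match on either strand. The RBPJ letters TGGGAA and the AP-1 letters TGANTCA have no match on either strand of the window, against 21.6% and 6.75% of the promoter windows with one.

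In activated cells the 664-base region was highest in the WT clone and lowest in KO2. Activated KO2 cultures had 3.15, 4.11 and 4.25 CPM. Activated KO1 cultures had 8.69, 9.72 and 10.3 CPM. The 3 activated cultures of each KO line lay below all 6 activated WT cultures, and KO2 lay below KO1 without overlap. The activated WT clone had 14.9, 19.8 and 19.6 CPM, and activated parental WT had 14.6, 12.5 and 14.1 CPM. Both WT lines thus lay above both KO lines, and the lowest culture of the WT clone was close to the highest of parental WT.

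In unactivated cells the region was lower in every line, and the lines lay closer together. Unactivated KO2 had 1.22, 1.30 and 1.14 CPM, and unactivated KO1 had 1.02, 1.15 and 1.77 CPM. The unactivated WT clone had 2.47, 1.45 and 2.44 CPM, and unactivated parental WT had 2.28, 2.58 and 2.00 CPM. KO1 and the WT clone overlapped, through the highest KO1 culture and the lowest culture of the WT clone. Across lines the activated cultures ranged from 3.15 to 19.8 CPM and the unactivated ones from 1.02 to 2.58 CPM, so the states did not overlap. In such bulk RNA, fewer cells with the RNA and less of it per cell cannot be told apart. The estimated counts behind these values were 95.0 to 668 per activated library and 33.9 to 83.0 per unactivated library.

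**Figure D2:**
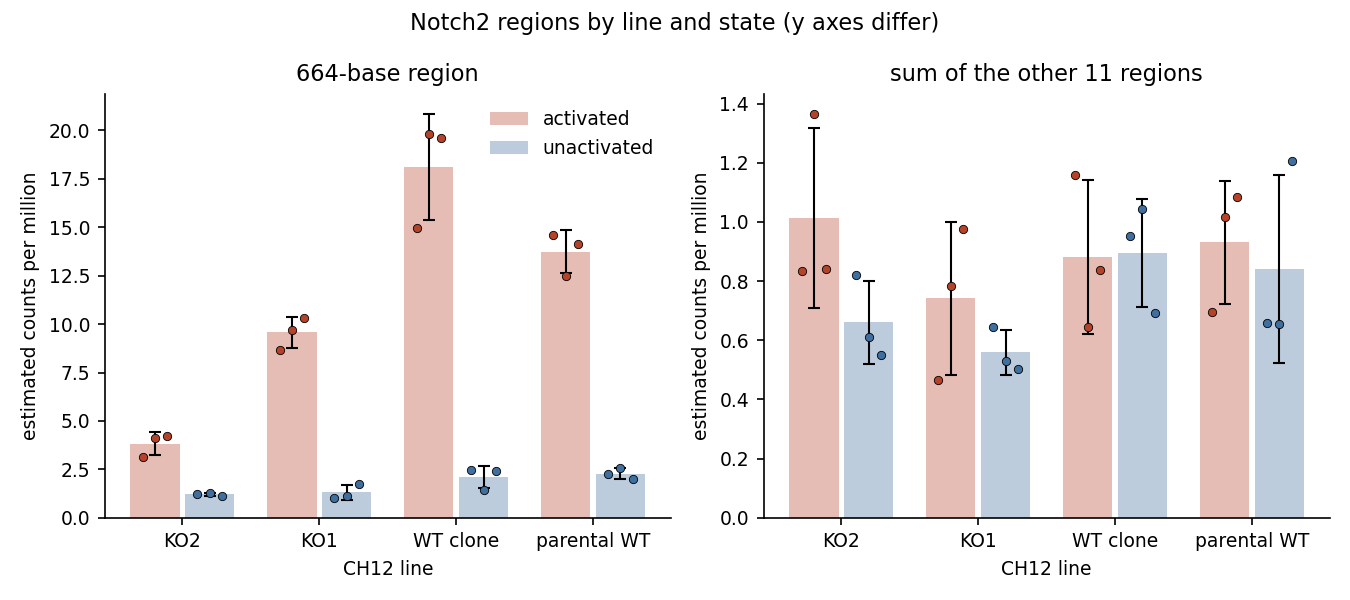
CPM of the 664-base region (left) and of the sum of the other 11 regions inside Notch2 (right) in each CH12 line, activated beside unactivated; bars are means, error bars SD, and points the 3 cultures, with y axes that differ. The left panel has activated bars above unactivated ones in every line, from 3.84 CPM in KO2 to 18.1 CPM in the WT clone, while all means in the right panel lie between 0.559 and 1.01 CPM.

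The size of the rise differed between lines, and KO2 had the smallest. The mean of the region was 3.84 ± 0.596 CPM in activated KO2 cells and 1.22 ± 0.0838 CPM in unactivated ones (SD, n = 3 each), a ratio of 3.15. In KO1 it was 9.57 ± 0.814 CPM activated and 1.31 ± 0.400 CPM unactivated, a ratio of 7.28. The WT clone had 18.1 ± 2.75 CPM activated and 2.12 ± 0.582 CPM unactivated, a ratio of 8.54, and parental WT had 13.7 ± 1.12 and 2.28 ± 0.292 CPM, a ratio of 6.02. The ratio of KO1 thus lay between those of the WT clone and parental WT. On the log2 scale of the model fitted over all 24 libraries, activation moved the region by 1.54 ± 0.23 in KO2, 2.74 ± 0.23 in KO1, 2.99 ± 0.24 in the WT clone and 2.50 ± 0.23 in parental WT (log2 change ± SE).

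The other 11 regions did not share this pattern. Summed, they averaged 1.01 ± 0.305 CPM in activated KO2 cells and 0.660 ± 0.142 CPM in unactivated ones, and 0.742 ± 0.258 and 0.559 ± 0.0753 CPM in activated and unactivated KO1 cells. The WT clone had 0.882 ± 0.260 CPM activated and 0.896 ± 0.183 CPM unactivated, and parental WT had 0.931 ± 0.208 and 0.840 ± 0.317 CPM (SD, n = 3 each). The states overlapped in KO1, the WT clone and parental WT; in KO2 the lowest activated culture, at 0.834 CPM, lay just above the highest unactivated one, at 0.820 CPM. The log2 change of the sum with activation was 0.38 ± 0.22 in KO lines and -0.032 ± 0.21 in WT lines. Of these 11, the region at 98099192, of 1486 bases, had the most counts, 115 over the activated libraries and 84.6 over the unactivated ones, and the region at 98083943, of 2384 bases, had 83.0 and 62.0. They and the 664-base region were the only 3 of the 12 with enough counts to be tested singly, and the remaining 9 had between 5 and 66 counts each over all 24 libraries.

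Summed over all 12 regions, Notch2 followed its leading region. Activated KO lines had 3.99 to 11.3 CPM with a median of 7.32, and activated WT lines had 13.5 to 20.4 CPM with a median of 15.7. The sum moved with activation by 1.80 ± 0.14 in KO lines and by 2.35 ± 0.14 in WT lines (log2 change ± SE), where the median of all 4485 gene values tested, each the sum of the regions inside a gene, was 0.28 and 0.18. The leading region made up 86.1 ± 8.06% of the sum in activated KO lines and 94.4 ± 1.89% in activated WT lines (SD, n = 6 each).

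The first comparison that did not choose the gene sets KO lines against WT lines within a state, though its values were known when the gene was chosen. In activated cells it uses the WT libraries that showed the rise, which favours lower values in KO lines in advance. These libraries also held 3118 of the 5043 counts of the 664-base region, which was picked for its counts. The p-values in activated cells are thus not independent of the choice. In activated cells the 664-base region had 6.70 ± 3.20 CPM in KO lines and 15.9 ± 3.04 CPM in WT lines (SD, n = 6 each), so that the CPM means were 2.38-fold lower in KO lines. With TMM scaling, the fitted log2 change was -1.42 ± 0.16 with an adjusted p of 5.82e-06 (edgeR's quasi-likelihood test with Benjamini-Hochberg adjustment over all targets). The spread in this model is that between cultures of the same line and state. Its SEs and p-values, here and below, do not measure the spread between clones. The 664-base region was the only 1 of the 3 tested Notch2 regions to be called, against 1.37% of 11166 tested regions called lower in this comparison. The region at 98083943 had a log2 change of -0.17 ± 0.52 and that at 98099192 one of -0.17 ± 0.37. With SEs this wide, the lack of a call in either says little by itself. The gene's sum was lower in KO lines (fitted log2 change -1.28 ± 0.13, edgeR adjusted p = 1.34e-07), where 2.34% of gene values were called lower, and the other 11 regions together had a log2 change of -0.11 ± 0.21 (edgeR adjusted p = 0.872). With counts summed per line, so that each line is 1 sample, the log2 change of the 664-base region was -1.31 and was not called (edgeR adjusted p = 0.287), while that of the gene's sum, -1.21, was (edgeR adjusted p = 0.0194).

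In unactivated cells the region was also lower in KO lines, by a smaller factor. It had 1.27 CPM on average in KO lines and 2.20 CPM in WT lines, a log2 change of -0.82 ± 0.16 (edgeR adjusted p = 0.00244), where 2.67% of tested regions were called lower. The other 11 regions together had a log2 change of -0.52 ± 0.22 (edgeR adjusted p = 0.179). The region at 98083943 had -1.15 ± 0.55 and that at 98099192 had -0.47 ± 0.38 (edgeR adjusted p = 0.269 and 0.596). These were lower in KO lines too but were not called. The gene's sum was 1.88 ± 0.246 CPM in KO lines and 3.07 ± 0.324 CPM in WT lines (SD, n = 6 each), and the 6 KO cultures lay below all 6 WT cultures. Its log2 change was -0.73 ± 0.14 (edgeR adjusted p = 0.00124), where 3.14% of gene values were called lower. Neither call held with counts summed per line, with log2 changes of -0.81 for the region (edgeR adjusted p = 0.463) and -0.71 for the sum (edgeR adjusted p = 0.226). The call of the region was also lost when the model held only the libraries compared (log2 change -0.79, edgeR adjusted p = 0.0514).

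Each KO line was also set against the WT lines by itself. Taken alone, activated KO2 cells had a log2 change of -2.07 ± 0.21 against both WT lines for the 664-base region (edgeR adjusted p = 2.64e-06), and activated KO1 cells one of -0.78 ± 0.19 (edgeR adjusted p = 0.0286). In unactivated cells the change was -0.87 ± 0.20 for KO2 and -0.78 ± 0.20 for KO1 (edgeR adjusted p = 0.0138 and 0.0315). The KO1 values were thus alike in both states, and the KO2 values lay further apart. With SEs of 0.19 and 0.20, the KO1 values do not show that its difference is the same in both states. The KO minus WT difference of the activation changes of the gene's sum, -0.55 ± 0.19 with both KO lines, was -1.09 with KO2 alone and -0.011 with KO1 alone. It holds the rise that chose the gene and is given with no test.

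Set against each other, KO2 was lower than KO1 in activated cells. The 664-base region had a log2 change of -1.29 ± 0.22 (edgeR adjusted p = 0.00660), where 0.107% of tested regions were called lower, and the gene's sum one of -1.06 ± 0.19 (edgeR adjusted p = 0.00904), where 0.0892% of gene values were called lower. The call of the sum was lost on leaving out activated KO2 culture 1, activated KO2 culture 3 or activated KO1 culture 2, with log2 changes over all single omissions from -1.16 to -0.94. The call of the region was lost on leaving out activated KO2 culture 1, and also when the region counts alone set the library sizes (log2 change -1.36, edgeR adjusted p = 0.0645) or when the model held only the libraries compared (-1.29, edgeR adjusted p = 0.0657). In unactivated cells the change of the region between KO2 and KO1 was -0.09 ± 0.23. The WT clone against parental WT had a log2 change of 0.43 ± 0.22 in activated cells (edgeR adjusted p = 0.791) and -0.07 ± 0.22 in unactivated cells.

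**Figure D3:**
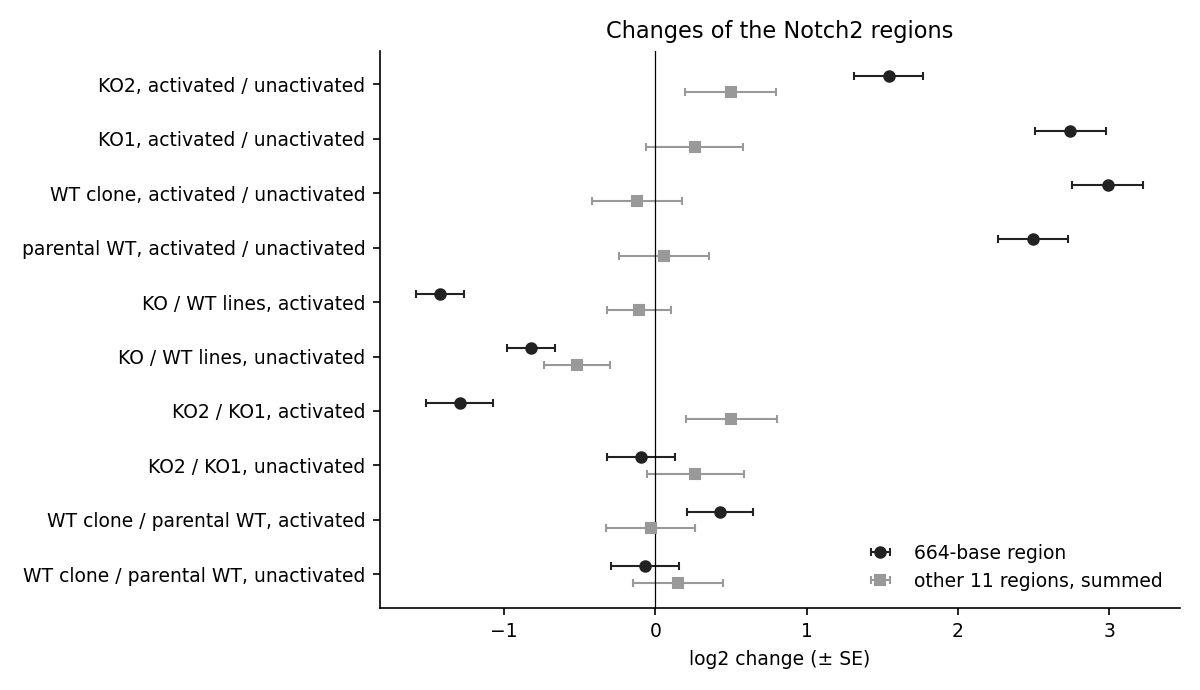
Log2 changes with their SE from the model over 24 libraries, for the 664-base region and for the sum of the other 11 regions inside Notch2, with activation in each line and between lines within a state. The 664-base region lies to the right of 0 for activation in all 4 lines and to the left of 0 for KO against WT lines in both states, while the other 11 regions lie within 0.52 of 0 throughout.

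Library totals lay between 28987854 and 34065813 estimated counts. The WT clone's unactivated culture 2, and parental WT's unactivated culture 3 and activated culture 2, stood apart on the second principal component. Without these 3, the log2 change of the 664-base region between KO and WT lines was -1.45 in activated and -0.99 in unactivated cells, and both calls held. Regions of B cell genes were present in all groups, at a summed 57.6 to 85.2 CPM in activated KO lines and 35.6 to 61.8 CPM in activated WT lines for 7 of 12 listed markers, with Pax5 and Ebf1 among them. Of 9 T cell markers 3 had regions, Bcl11b was at 0 throughout, and their sum was 0.413 to 0.929 CPM in activated KO lines and 0.178 to 0.415 CPM in activated WT lines, most of it from Lck. Of 8 stromal and endothelial markers 5 had regions, with Col1a1 at 0 throughout, and their sum moved with activation. It was 3.26 to 4.44 CPM in activated and 1.44 to 1.95 CPM in unactivated KO lines, and 2.77 to 4.39 CPM in activated and 1.12 to 2.48 CPM in unactivated WT lines. Pdgfrb, a growth factor receptor gene of that list, rose by 2.15 ± 0.33 in KO lines and by 2.65 ± 0.32 in WT lines (log2 change ± SE, edgeR adjusted p = 1.54e-05 and 5.09e-07), and all 3 tested genes of the list were called higher in KO lines and 2 of 3 in WT lines, where 24.1% and 16.5% of all gene values were. Of 8 myeloid markers 3 had regions, and their sum was 0.859 to 1.21 CPM in activated and 0.439 to 0.963 CPM in unactivated KO lines, and 0.896 to 1.26 CPM in activated and 0.298 to 1.28 CPM in unactivated WT lines. The part of these marker differences in the Notch2 values was not tested. The 6 regions inside Zmynd8 summed to 2.94 to 4.43 CPM in activated KO lines and 2.05 to 3.39 CPM in activated WT lines, and were called higher in KO lines (log2 change 0.52 ± 0.16, edgeR adjusted p = 0.0417). Since the edit is not stated, RNA from these regions does not check the labels.

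The transcribed regions outside genes around Notch2 had overlapping levels in both states. The 9 regions that lie outside genes within 200 kb of Notch2 summed to 0.428 ± 0.146 CPM in activated cultures and 0.482 ± 0.136 CPM in unactivated ones (SD, n = 12 each). Gm5544, 46.5 kb away, averaged 1.39 ± 0.344 CPM in activated and 1.11 ± 0.345 CPM in unactivated cultures and was called in neither KO nor WT lines. Sec22b, a vesicle fusion protein gene 91.2 kb away, had 45.8 counts in activated and 36.6 in unactivated libraries, too few to be tested. Downstream, Adam30, 10.3 kb away, held no region, and Reg4, 71.8 kb away, had 3.7 counts in activated and 1 in unactivated libraries. Pde4dip, which encodes a protein of the Golgi and centrosome and lies 124.8 kb upstream, was named after its values were seen, so they are given with no test. It averaged 1.03 ± 0.270 CPM in activated and 0.177 ± 0.100 CPM in unactivated cultures, a log2 change of 2.45 ± 0.27 in KO lines and 2.43 ± 0.24 in WT lines.

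The other genes of the Notch pathway were read from their own regions, as a list of 80 genes of which 50 had regions and 37 had enough counts to be tested. A rise or fall of any gene named here is that of RNA from such regions, and not of its messenger RNA. The same holds for the marker genes and the neighbours of Notch2. How far 1 region leads each of these genes is not given. In activated against unactivated KO lines 17 of the 37 rose and 1 fell, while 24.1% of all gene values rose and 4.19% fell. In WT lines 11 rose and 1 fell, while 16.5% of all gene values rose and 5.44% fell. The median log2 change of the 37 was 0.45 in KO lines and 0.31 in WT lines, against 0.28 and 0.18 over all gene values. The split between higher and lower rests on scaling: with the region counts alone setting the library sizes, 9 rose and 1 fell in KO lines and 6 rose and 3 fell in WT lines. The share of all calls that were higher was then 49.3% in KO lines and 48.4% in WT lines, in place of 85.2% and 75.2%.

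Of the receptors, Notch1 rose in both genotypes. Its regions had 319.8 counts over all libraries, against 5665 for Notch2, of which the leading region held 89.0%. Without that region, Notch2 summed to 0.878 CPM in activated KO lines and 0.906 CPM in activated WT lines. These levels are not scaled by length, so they do not rank the receptors by expression. Notch1 averaged 0.520 ± 0.0937 CPM in activated and 0.187 ± 0.112 CPM in unactivated KO lines (SD, n = 6 each), a log2 change of 1.33 ± 0.30 (edgeR adjusted p = 0.00154). In WT lines it averaged 0.658 ± 0.122 CPM activated and 0.300 ± 0.0927 CPM unactivated, a log2 change of 1.03 ± 0.28 (edgeR adjusted p = 0.00717), which was not called without the 3 libraries that stood apart (0.84). Notch3 had 26.2 counts over all libraries and was not tested. Of the 7 ligands, Dll3, Jag2 and Dner had regions, with 14.3, 6 and 49.3 counts over all libraries, and none was tested.

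Of 5 tested genes for receptor glycosylation, Gxylt1 and Gxylt2, which add xylose to the glucose on Notch repeats, rose in both genotypes. Gxylt1 had a log2 change of 0.99 ± 0.17 in KO lines and 0.45 ± 0.16 in WT lines (edgeR adjusted p = 6.46e-05 and 0.0456), and the call in WT lines was lost in most other settings. Gxylt2 had 1.18 ± 0.29 and 1.02 ± 0.30 (edgeR adjusted p = 0.00319 and 0.0136), with the call in WT lines lost on leaving out activated culture 3 of the WT clone (0.75). Of 13 tested genes for cleavage and trafficking, 7 rose in KO lines and 3 in WT lines, where 24.1% and 16.5% of all gene values rose. Dtx4, a Deltex ubiquitin ligase, rose by 1.13 ± 0.18 in KO lines (edgeR adjusted p = 3.51e-05) and had 0.46 ± 0.18 in WT lines (edgeR adjusted p = 0.0643). Its KO minus WT difference, 0.67 ± 0.26, was not called (edgeR adjusted p = 0.322). Numb, an inhibitor of Notch signalling, rose by 0.98 ± 0.25 in KO lines (edgeR adjusted p = 0.00353) and was not called in WT lines. Its KO minus WT difference, 0.69 ± 0.36, was not called (edgeR adjusted p = 0.492). Taok3, a kinase, rose by 0.78 ± 0.15 in KO lines and 0.47 ± 0.15 in WT lines (edgeR adjusted p = 0.000289 and 0.0260). The WT call was lost in 5 of 24 omissions of 1 library and in 4 of 10 other settings. Nedd4, a ubiquitin ligase, rose by 0.54 ± 0.15 in KO lines and 0.51 ± 0.14 in WT lines (edgeR adjusted p = 0.00680 and 0.00789). Both Nedd4 calls were lost with counts summed per line and when the region counts set the library sizes. Adam17, a protease that can cut Notch receptors, had 0.65 ± 0.24 in KO lines (edgeR adjusted p = 0.0430) and rose by 1.12 ± 0.24 in WT lines (edgeR adjusted p = 0.00109). The call in KO lines was lost in 5 other settings, in 11 of 24 omissions of 1 library and with KO1 alone (0.30). Dtx1 was called in neither genotype, though 2 of 24 omissions of 1 library gave a call in WT lines. Over these omissions its log2 change ran from -0.55 to -0.025 in KO lines and from -1.09 to -0.63 in WT lines.

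In the nuclear complex Rbpj, the DNA-binding partner of the Notch intracellular domain, had the largest rise in KO lines. It averaged 13.1 ± 3.12 CPM in activated and 2.80 ± 0.543 CPM in unactivated KO lines, and 8.31 ± 1.83 CPM in activated and 3.83 ± 1.46 CPM in unactivated WT lines (SD, n = 6 each). Its log2 changes were 2.11 ± 0.21 in KO lines and 1.05 ± 0.20 in WT lines (edgeR adjusted p = 1.26e-08 and 0.000270). The difference of these changes, 1.06 ± 0.28, was not past the threshold (edgeR adjusted p = 0.0821). Maml2, a Mastermind-like coactivator, had 0.34 ± 0.21 in KO lines (edgeR adjusted p = 0.259) and rose by 1.05 ± 0.21 in WT lines (edgeR adjusted p = 0.000445). Its KO minus WT difference, -0.72 ± 0.30, was not called (edgeR adjusted p = 0.372). Fbxw7, which marks the intracellular domain for breakdown, rose by 1.14 ± 0.21 in KO lines (edgeR adjusted p = 0.000156) and was not called in WT lines. Its KO minus WT difference, 0.71 ± 0.30, was not called (edgeR adjusted p = 0.38). Cdk19, a kinase of the Mediator complex, had 0.51 ± 0.19 in KO lines and 0.53 ± 0.19 in WT lines (edgeR adjusted p = 0.0415 and 0.0459). Its call in KO lines was lost in 12 of 24 omissions of 1 library and in 5 of 10 other settings, DESeq2 among them, and that in WT lines in 18 of 24 omissions and in 4 of 10 settings.

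Of the 4 tested target genes, 3 rose and 1 fell in KO lines, and 2 rose and 1 fell in WT lines. Over all gene values 24.1% and 16.5% rose, and 4.19% and 5.44% fell. Asb2, a ubiquitin ligase subunit gene known as a Notch target and listed also among marginal zone genes, rose by 2.17 ± 0.26 in KO lines and by 2.04 ± 0.24 in WT lines (edgeR adjusted p = 4.84e-07 and 2.56e-07). Bcl2, a survival gene, rose by 0.73 ± 0.18 and 0.70 ± 0.18 (edgeR adjusted p = 0.00253 and 0.00483), calls lost when the region counts set the library sizes. Myc, a growth regulator and a direct Notch target in T cells, fell: it averaged 10.9 ± 0.582 CPM in activated and 23.6 ± 5.36 CPM in unactivated KO lines, a log2 change of -1.23 ± 0.18 (edgeR adjusted p = 7.44e-06), and -1.36 ± 0.18 in WT lines (edgeR adjusted p = 2.27e-06). Il2ra had 0.55 ± 0.21 in KO lines (edgeR adjusted p = 0.0495) and was not called in WT lines. Its KO minus WT difference, 0.26 ± 0.31, was not called (edgeR adjusted p = 0.850). Its call in KO lines was lost in 17 of 24 omissions of 1 library and in 5 of 10 other settings. Hes1, the best known Notch target, was among the 30 listed genes with no region inside them.

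**Figure D4:**
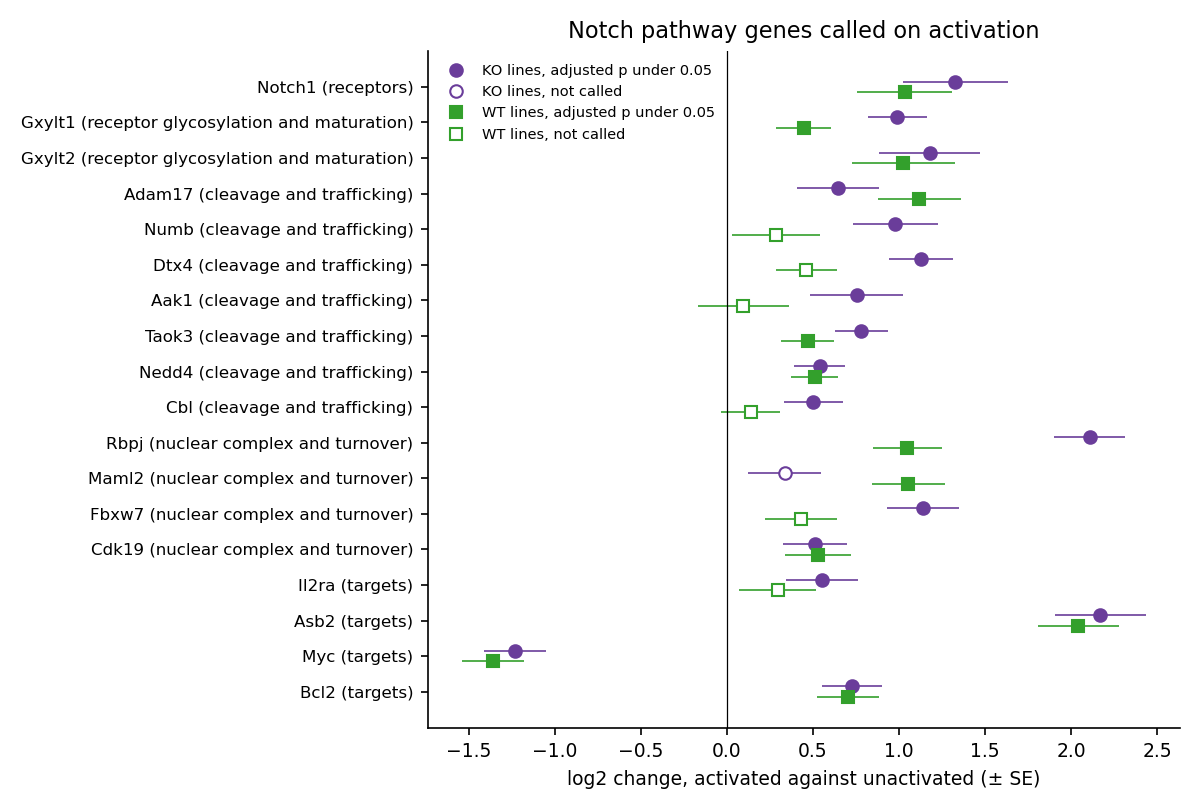
Log2 change with SE between activated and unactivated cells, in KO lines and in WT lines, for tested Notch pathway genes other than Notch2 that were called in at least 1 genotype; filled symbols passed an edgeR adjusted p of 0.05. Asb2 and, in KO lines, Rbpj lie above 2, and Myc lies below 0 in both.

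Of the 37 genes, 2 were called between KO and WT lines in activated cells and 4 in unactivated cells. Over all gene values 8.7% and 6.6% were called. In activated cells Bcl2 was higher (log2 change 0.68 ± 0.18, edgeR adjusted p = 0.0122) and Nedd4, a ubiquitin ligase, was lower (-0.62 ± 0.14, edgeR adjusted p = 0.00329), against a background of 6.35% called higher and 2.34% called lower. In unactivated cells Bcl2 was higher (0.65 ± 0.18, edgeR adjusted p = 0.0241), and Gxylt1 (-0.96 ± 0.17), Nedd4 (-0.65 ± 0.15) and Dtx4 (-0.64 ± 0.19) were lower, with edgeR adjusted p of 0.000537, 0.00552 and 0.0396, against a background of 3.46% called higher and 3.14% called lower. Without the 2 unactivated libraries that stood apart the Bcl2 and Dtx4 calls of unactivated cells were lost, at 0.59 and -0.38, and leaving out 1 library lost them in 3 and 10 of 24 cases. Against parental WT alone all 4 calls of unactivated cells were lost, and with KO1 alone both calls of activated cells were lost. Rbpj was called in neither state by the main model. In activated cells its log2 change ran from 0.49 to 0.70 over single omissions, and 7 of 24 gave a call. It was also called with KO2 alone, DESeq2, no filter, the replicate block or only the libraries compared, and without 2 or 3 libraries. It was not called with KO1 alone, either WT line alone, other scalings or counts summed per line. In unactivated cells the range was -0.58 to -0.24, with no call.

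Among 11 tested genes listed for marginal zone B cells, 5 rose and 2 fell in KO lines, where 24.1% of all gene values rose and 4.19% fell. In WT lines 2 of the 11 rose, a share close to the 16.5% of all gene values. The 7 calls in KO lines became 3 on leaving out unactivated KO1 culture 3 or with KO1 alone, and 4 with the region counts setting the library sizes. Plxnd1, a semaphorin receptor, had the highest change, 3.46 ± 0.18 in KO lines and 3.05 ± 0.17 in WT lines (edgeR adjusted p = 3.86e-13 and 1.89e-12), and Asb2 was the other that rose in both. Myof, a membrane repair protein gene, fell by 1.59 on the log2 scale in KO lines (SE 0.27, edgeR adjusted p = 5.32e-05). Its KO minus WT difference, -1.025 (SE 0.38), was not called (edgeR adjusted p = 0.305). Of 5 tested follicular B cell genes, the chemokine receptor gene Cxcr5 rose by 2.31 ± 0.15 in KO lines and 2.33 ± 0.15 in WT lines (edgeR adjusted p = 1.11e-11 and 1.89e-11) and Itga4 rose in both, so genes of both lists rose. Ikzf1, which encodes the transcription factor Ikaros, had -0.44 ± 0.14 in KO lines and -1.08 ± 0.14 in WT lines (edgeR adjusted p = 0.0201 and 2.05e-06), and 3 of 24 omissions of 1 library lost the call in KO lines.

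The 10 gene values whose pattern was most like that of Notch2 were taken from 372 candidates by Pearson's r of log2(CPM + 0.5) over the 24 libraries, which share the step between states. They were Birc2 (r = 0.948), Il9r (0.945), Coro2a (0.936), Bcl2a1b (0.930), Pik3r6 (0.926), Sik1 (0.923), Cd82 (0.921), Rab11fip3 (0.915), Chst11 (0.911) and Pakap (0.909). Within the 12 activated libraries alone their r lay between 0.639 and 0.910. Within the 12 unactivated libraries it lay between -0.201 for Coro2a and 0.855 for Pik3r6, with 0.279 for Birc2. By Spearman's rank correlation over all 24 the list of 10 shared 8 of these genes. Bcl2a1b has near-identical copies in the genome, so its counts are uncertain. Il9r, the interleukin-9 receptor, averaged 1.95 ± 0.519 CPM in activated KO lines and 5.29 ± 0.755 CPM in activated WT lines, and Birc2, an inhibitor of apoptosis in NF-kB signalling, 3.90 ± 0.781 and 7.17 ± 1.43 CPM (SD, n = 6 each). Il9r averaged 1.81 CPM in activated KO2 cells and 2.10 CPM in activated KO1 cells, and Birc2 averaged 3.37 and 4.42 CPM. Rab11fip3, a vesicle recycling adaptor gene, averaged 2.59 CPM in activated KO2, 5.18 CPM in activated KO1, 9.74 CPM in the activated WT clone and 6.98 CPM in activated parental WT, the order of the lines seen for Notch2. Birc2, Pik3r6 and, with near-equal WT lines, Coro2a had that order too, and the rest of the 10 did not. All 10 were picked for likeness to Notch2 over these libraries, so a shared order is partly built in.

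**Figure D5:**
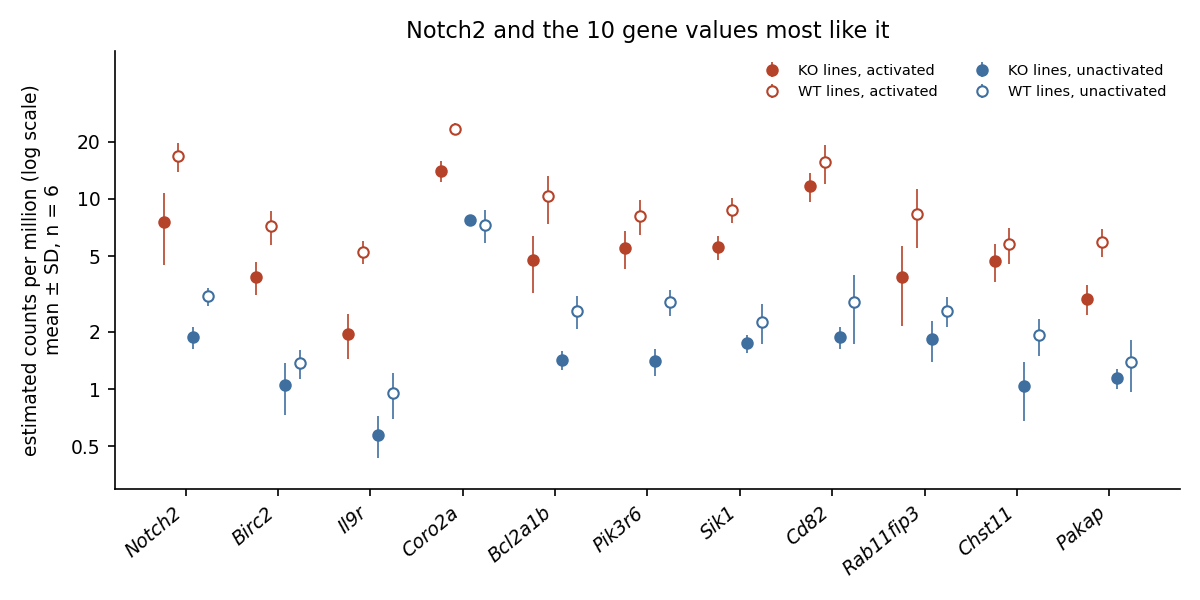
Mean ± SD (n = 6 libraries) in CPM, on a log axis, of Notch2 and the 10 gene values most like it, in KO and WT lines of each state; levels are not scaled by length and are not to be compared between genes. For every gene shown the activated means lie above the unactivated means of the same genotype, and activated KO lines lie below activated WT lines.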

How the data were processed

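Per the labels, RNA was depleted of ribosomal RNA and stranded single-end libraries were sequenced on the same flow cells. Kallisto 0.43.0, DESeq2 and the build GRCm38.p5 are listed in the submitters' processing notes, with no index or strand setting. The authors deposited 1 table per library, in which kallisto's model shares reads among 171152 targets and gives each an estimated count, not normalized. The deposited TPM values of the authors were not used. Transcripts were not linked to genes here, and reads of a region that a transcript overlaps may have gone to the transcript.

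Estimated counts were rounded. Notch2 is the sum of 12 regions; 1 further region in its span also lies in Gm40103 (3 counts in activated and 7 in unactivated libraries) and was left out. Gene values sum the regions inside 1 RefSeq gene (GRCm38.p6). Library size is the total over all targets, with TMM scaling factors; low counts were removed by filterByExpr. One edgeR 4.0.16 quasi-likelihood model (R 4.3.3, limma 3.58.1) held 8 group means, and calls are at a Benjamini-Hochberg adjusted p under 0.05. The scripts were tested on simulated data. Where 1 line is taken alone, it is set against both lines of the other genotype.

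The gene and all lists were chosen with earlier results of these data known. The rule for named genes took Notch2 and its regions, up to 4 called members per Notch list and comparison, the 10 gene values most like it, and neighbours; the text adds Pde4dip and some called genes of the marker lists, whose other called genes stand only in the counts. One gene of the Notch lists, kept in the counts, is not reported here by name. Replicates differed by more than counting noise. The main model did not pair cultures by replicate number, and a fit with that number as a block is given below. Alternatives were other scalings, DESeq2 1.42.0, no filter, fewer libraries or lines, counts summed per line, a replicate block, and Notch2 without its leading region. The other 9 samples (ChIP-seq and GRO-seq) were not used here.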

Additional observations from a re-analysis of the deposited data

How the results depend on the processing

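Without its leading region, the sum of Notch2 lost its rise in WT lines and all its calls: the log2 change was 0.38 for activation in KO lines and -0.032 in WT lines, 0.41 for their difference, -0.11 (edgeR adjusted p = 0.872) and -0.52 (0.179) for KO against WT lines activated and unactivated, and 0.50 for KO2 against KO1 activated (0.931). Scaled to the region counts, activation was 1.45 in KO and 2.11 in WT lines. By line, activation was 1.25 in KO2, 2.34 in KO1, 2.55 in the WT clone and 2.14 in parental WT, and its KO minus WT difference -1.09 with KO2, -0.011 with KO1, -0.75 with the WT clone and -0.35 with parental WT. With counts summed per line the unactivated KO against WT change was -0.71 (0.226). Leaving out each library gave ranges of -1.35 to -1.22 (KO against WT, activated), -0.81 to -0.69 (unactivated), -1.16 to -0.94 (KO2 against KO1, activated; 3 of 24 omissions lost the call), -0.05 to 0.19 (unactivated), 0.31 to 0.51 and -0.08 to 0.11 (WT clone against parental WT, activated and unactivated), 1.74 to 1.87 and 2.29 to 2.41 (activation in KO and WT lines) and -0.62 to -0.47 (their difference).

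Pathway genes called on activation numbered 18 in KO lines (10 with KO2 alone or scaled to the region counts; 13 to 18 on single omissions) and 12 in WT lines (7 with the WT clone alone, 6 with parental WT alone; 9 to 16). Between KO and WT lines 2 were called in activated cells, against 4 with KO2 alone, by DESeq2, without a filter or without 3 libraries, 5 scaled to the region counts, with the replicate block, with only the libraries compared or without 2 libraries, 1 summed per line and 0 with KO1 alone (2 to 4 on single omissions); in unactivated cells 4, against 2 with KO2, KO1 or the WT clone alone, summed per line or without 2 or 3 libraries, and 0 with parental WT alone (2 to 4). Of Notch2's regions 1 was called in each KO against WT comparison, against 0 summed per line in both and 0 with only the libraries compared in unactivated cells (1 to 1 and 1 to 2 on omissions); for KO2 against KO1 activated it was 1, against 0 scaled to the region counts or with only the libraries compared (0 to 1). The causes were not tested. Gene values called between activated KO2 and KO1 numbered 7, against 15 without a filter, 11 without 2 or 3 libraries, and on single omissions 0 without activated KO2 culture 3, 3 without KO2 culture 1, 2 without KO1 culture 1, 3 without KO1 culture 2 and 6 to 10 otherwise.

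With the replicate number as a block, Notch2 changed by -1.28 and -0.73 (KO against WT, activated and unactivated), -1.06 and 0.03 (KO2 against KO1), 0.39 and -0.00 (WT clone against parental WT), 1.79 and 2.35 (activation in KO and WT lines) and -0.55; no Notch2 call moved. In their deviations from group means, same-numbered libraries of different groups correlated by -0.234 to 0.192 over 84 pairs (median 0.0325). Libraries of different number correlated by -0.262 to 0.391 over 168 pairs (median -0.0169). The median was thus higher for the same number, and 17 of 24 libraries correlated best with their own number. The fit on regions that overlap no annotated exon was not run. All 12 groups of Notch2 values, each the 6 libraries of 1 genotype and state, were checked for a culture far from the rest, and none was. Each group pooled both lines of the genotype. A gap between lines widens its range, so a stray culture within 1 line could be missed. Unactivated counts of 33.9 to 83.0 per library limit the precision there.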
